A study of Mus musculus with 6 samples.

Results

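The genes of glycolysis and of the pentose phosphate pathway were followed in mouse embryo fibroblasts (MEFs) with and without Mcm8, which encodes a helicase of the minichromosome maintenance family. The group was chosen by gene name, and the rule itself uses no measured value, although the members were chosen with earlier results of these data known. It holds 37 genes: the transporters and enzymes that carry glucose to pyruvate and lactate, a subunit and kinases of the mitochondrial pyruvate dehydrogenase complex, and both branches of the pentose phosphate pathway. All 37 were found among the 55565 gene rows listed, and all 37 were among the 26898 rows with a value above 0 in at least 1 library, which were the rows tested. RNA was sequenced from 3 wildtype (WT) and 3 Mcm8 knockout (KO) libraries. The cells came from the trunks of embryos at embryonic day 13.5 whose parents were heterozygous for the Mcm8 deletion. The deletion was made with CRISPR-Cas9 in C57BL/6 mice, which were then crossed to ICR mice, so neither genotype was inbred. Both were immortalized with a lentivirus carrying SV40gp6 and selected with puromycin, and both grew in DMEM with fetal bovine serum. The study's methods call the 3 libraries of a genotype biological repeats. The sources used here do not tie a library to an embryo or a culture, so the p-values measure the spread among these libraries, whose kind is not known further, and a difference between genotypes cannot be told apart from a difference between cultures.

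Gene counts summed to between 12722979 and 21022755 per library. Levels are given as CPM, which are counts scaled to a common library size, where a gene is compared between libraries. Comparisons between genes use FPKM, which also divides by gene length. Mcm8 itself had 13.8, 16.6 and 12.8 CPM in WT and 4.20, 4.45 and 4.12 CPM in KO, a log2 fold change of -1.75 ± 0.16 (SE, adjusted p = 4.45e-26). All 12 fibroblast markers examined were detected, and they summed to 20882 to 22810 CPM (WT) and 21452 to 22068 CPM (KO). That sum is mostly collagen and vimentin RNA, and single markers differed: 6 were called lower in KO, among them Thy1 (log2 fold change -1.03), Pdgfrb (-0.74), Fap (-1.67) and Postn (-0.45), 2 were called higher (Col1a1, 0.20, and Col3a1, 0.29) and 4 did not pass. Markers of skeletal muscle summed to between 3.78 and 5.56 CPM in every library, with Myod1, Ckm and Mymk at 0 in all. Blood markers summed to at most 2.83 CPM and endothelial markers to at most 4.33 CPM. Epithelial markers summed to at most 1.45 CPM in WT and at least 5.95 CPM in KO, mesothelial markers to at most 3.35 and at least 43.2 CPM, and cartilage markers to at most 16.2 and at least 35.8 CPM, and their part in the results below was not tested. These sums rest on few genes. A mean of at least 1 CPM was reached by 1 of the 6 epithelial markers (Krt18), 1 of the 4 mesothelial markers (Msln) and 2 of the 3 cartilage markers (Sox9 and Acan). Msln alone was at 43.1, 48.3 and 43.2 CPM in KO. In bulk RNA, fewer cells of a type and less RNA per cell cannot be told apart.

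Glycolysis splits glucose into pyruvate in the cytosol and yields ATP and NADH. Lactate dehydrogenase turns pyruvate into lactate, which leaves through monocarboxylate transporters, while the pyruvate dehydrogenase complex, inside the mitochondrion, turns it into acetyl-CoA. Pyruvate dehydrogenase kinases switch that complex off. The pentose phosphate pathway branches off at glucose-6-phosphate, with an oxidative arm that makes NADPH and a non-oxidative arm that makes ribose-5-phosphate for nucleotides. Cultured fibroblasts that divide quickly are known to use glycolysis heavily even in the presence of oxygen.

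The levels spanned a wide range and fell into separate tiers. Pkm, the last enzyme of glycolysis, was the most abundant member at 454 FPKM over all libraries. Eno1 (268 FPKM), Ldha (263 FPKM), Pgam1 (234 FPKM), Aldoa (234 FPKM), Tpi1 (226 FPKM) and Pgk1 (226 FPKM) came next. The order among these 6 was not the same in each genotype: Eno1 was at 237 FPKM in WT, below Ldha (254 FPKM) and Pgam1 (244 FPKM), and at 298 FPKM in KO, where Pgam1 was the lowest of them at 224 FPKM, and the Eno1 level rests on how reads were split with its copies. In WT, the spread between libraries was larger than most of the gaps between these neighbours (Aldoa 233 ± 14.6 and Tpi1 218 ± 14.7 FPKM, SD, n = 3). No member lay between 100 FPKM and these 7 genes, which were all above 200 FPKM, and the next was Gpi1 at 50.3 FPKM. From 10 to 100 FPKM there were 16 members, among them the pentose phosphate enzymes Tkt (47.3 FPKM), Taldo1 (35.1 FPKM), Pgd (30.6 FPKM) and G6pdx (28.4 FPKM). The remaining 14 members were below 10 FPKM, down to Slc2a3 at 0.597 FPKM. Gapdh ranked only 28 of 37, at 5.33 FPKM, and most counts of its family stood on the rows of its copies, as described below. Together the members held from 0.855% to 0.932% of all counts in WT and from 0.956% to 0.980% in KO.

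**Figure D1:**
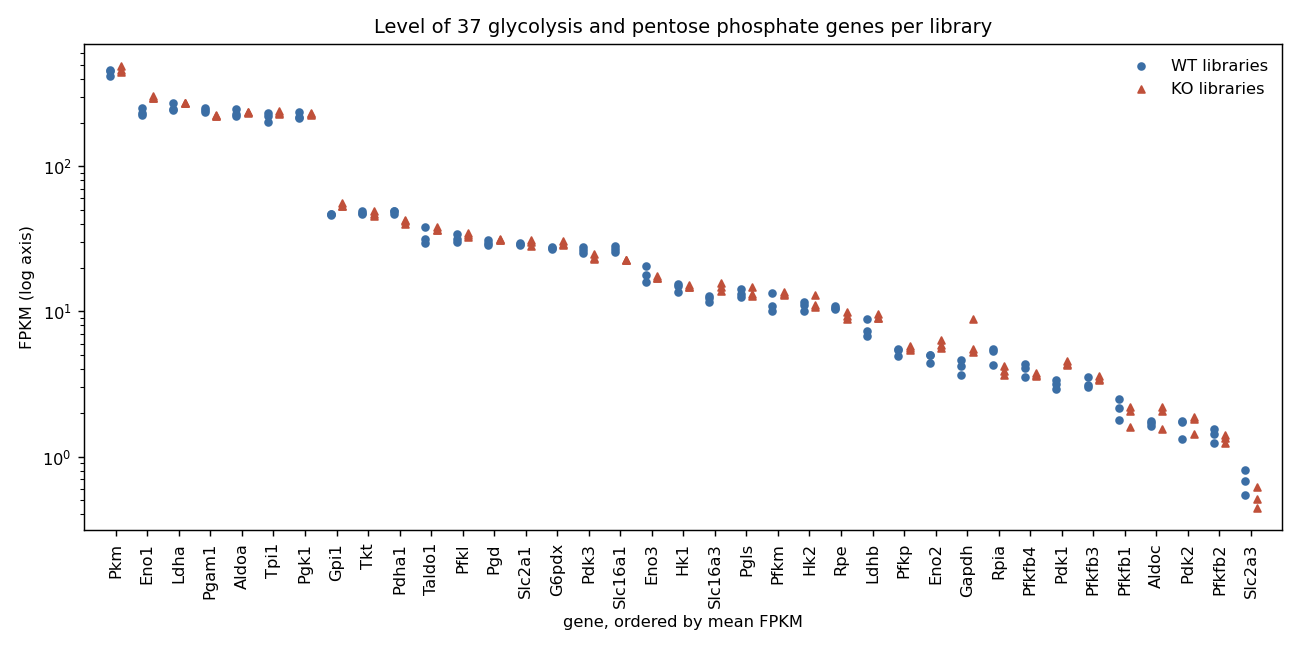
FPKM (log axis) of the 37 genes in each of the 3 WT libraries (circles) and 3 KO libraries (triangles), ordered by mean level. A group of 7 genes sits above 200 FPKM and is set apart from Gpi1 at 50.3 FPKM, and the genotypes lie close together for most genes.

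Changes in KO were few and all smaller than 2-fold. Of the 37 members, 6 were significantly higher (Gpi1, Gapdh, Eno1, Eno2, Slc16a3 and Pdk1), 3 were significantly lower (Slc16a1, Pdha1 and Rpia) and 28 did not pass the test. The members called higher were 16.2% of the group and those called lower 8.11%, beside 4.97% and 4.03% of all rows tested. Most rows tested are far less abundant than these genes. Of the 32 members with a mean of at least 10 CPM, 18.8% were called higher and 9.38% lower, beside 8.36% and 8.79% of all 9378 genes at that level. The members were chosen with earlier results known, so the shares only describe the group. With counts of copies added to their parents, 5 members were called higher, and Eno1 was not among them. At that level the share called lower was close to the background. No member passed both thresholds of the study for a differentially expressed gene (absolute log2 fold change above 1 and adjusted p below 0.05), which 1.75% of all rows passed as higher and 0.665% as lower. An unadjusted p below 0.05 was found for 12 members, all of at least 10 CPM (37.5% of the 32, beside 31.8% of all genes at that level). The members' log2 fold changes had a median of 0.07, beside 0.01 over all rows tested, and the 32 members of at least 10 CPM one of 0.07, beside -0.01 over all genes at that level. These counts depended on single libraries: 11 members were called higher without WT1, 2 without KO2 and 3 without KO3, and 1 was called lower without WT3, KO2 or KO3 and 0 without KO1. The 5 members added to the higher ones without WT1 were Tpi1, Pfkm, Ldha, Ldhb and Taldo1, and Pgam1 was called lower without it.

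The 3 KO values lay above the 3 WT values for 10 of the 32 members of at least 10 CPM (31.3%, beside 16% of all genes at that level), and below them for 6 (18.8%, beside 19.8%). Ldha, Ldhb, G6pdx and Pgd were separated upwards without passing the test, and Pgam1, Pdk3 and Rpe downwards. Variation between libraries of a genotype was small, with a median coefficient of variation over the members of 6.44% in WT and 3.42% in KO. The summed level of all members was 2438, 2248 and 2325 FPKM in WT and 2435, 2436 and 2485 FPKM in KO. Those sums overlapped, and their means differed by 4.92%.

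**Figure D2:**
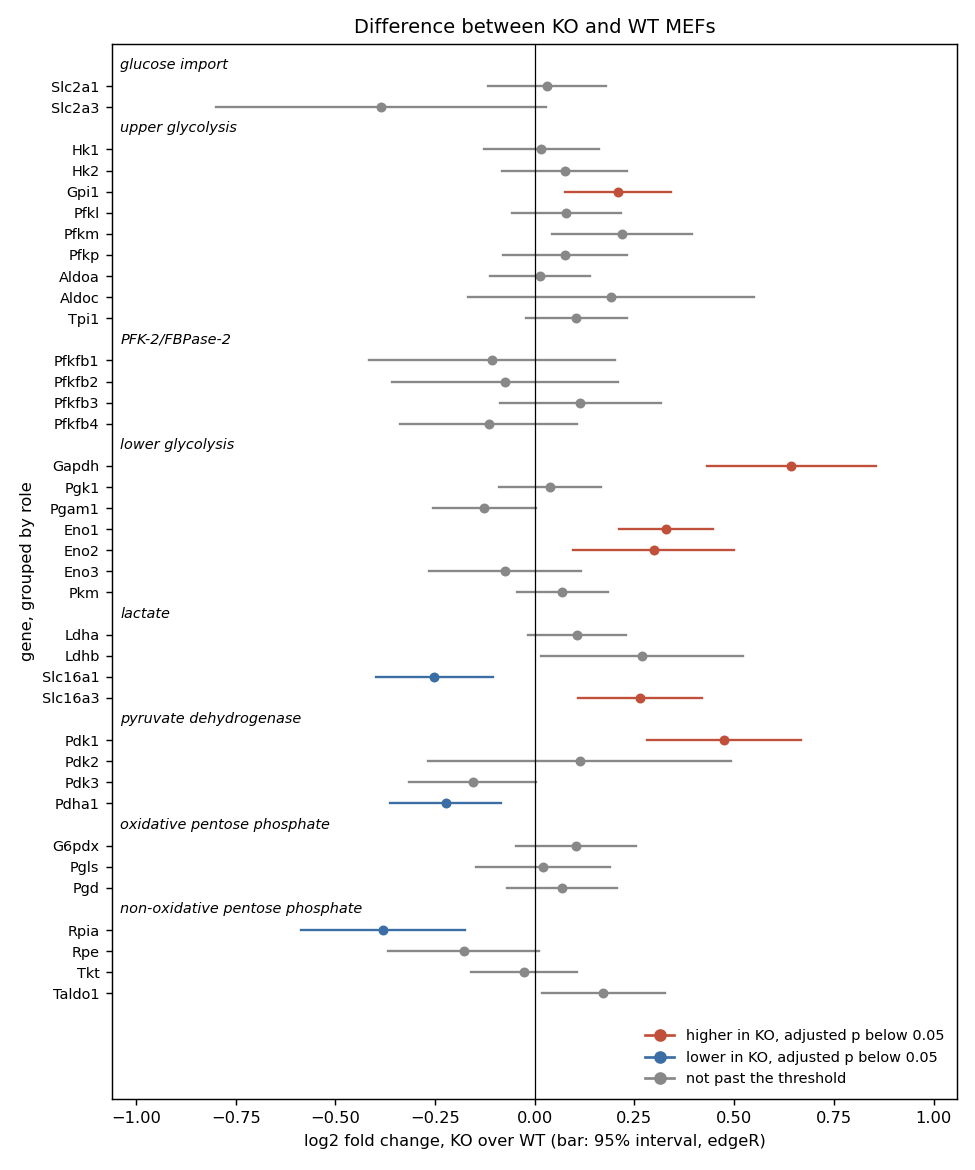
Log2 fold change of each member, KO over WT, with its 95% interval from edgeR, grouped by role, with called genes in color. Most intervals cross 0, the lowest called value is -0.38 (Rpia) and the highest is 0.64 (Gapdh).

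Neither glucose transporter passed the test. Slc2a1 encodes GLUT1, the main glucose transporter of fibroblasts, and was at 101, 103 and 104 CPM in WT and 106, 99.5 and 109 CPM in KO. Its log2 fold change was 0.03 (95% interval from -0.12 to 0.18), so a change of the size seen for Slc16a1 lay outside the interval. Slc2a3, encoding GLUT3, was scarce, at 3.92, 5.85 and 4.94 CPM in WT and 3.21, 4.45 and 3.68 CPM in KO. These values overlapped, and the log2 fold change of -0.39 had a wide 95% interval, from -0.80 to 0.03, which does not exclude a fall.

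Of the 9 members of upper glycolysis, which takes glucose to triose phosphates, 1 rose and 8 did not pass the test. Gpi1, which converts glucose-6-phosphate to fructose-6-phosphate (GRCm39 chromosome 7, 33900755 to 33929761), was at 304, 296 and 308 CPM in WT and 343, 344 and 363 CPM in KO. All KO libraries exceeded all WT libraries, although the rise was small at 0.21 ± 0.07 (log2, SE, adjusted p = 0.0265) and was not called without WT2 or any single KO library (adjusted p up to 0.22). The hexokinases, which trap glucose by phosphorylation, had log2 fold changes of 0.02 (Hk1) and 0.07 (Hk2). Those of the phosphofructokinases, the committed step, were 0.08 for Pfkl, 0.22 for Pfkm and 0.07 for Pfkp. Pfkm came nearest to the threshold among these (adjusted p = 0.124), at 44.7, 33.7 and 36.7 CPM in WT and 43.9, 43.9 and 45.8 CPM in KO, where WT1 lay among the KO values. Without WT1 the log2 fold change of Pfkm was 0.34 and was called (adjusted p = 0.00103). Over the omissions of each single library it ranged from 0.14 to 0.34, with an adjusted p of up to 0.527. Aldolase A (Aldoa, 0.01), aldolase C (Aldoc, 0.19) and triosephosphate isomerase (Tpi1, 0.10) did not pass either, and their genotypes overlapped.

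The bifunctional PFK-2/FBPase-2 enzymes set the level of fructose-2,6-bisphosphate, an activator of phosphofructokinase. None of these 4 passed the test. Pfkfb3, the isoform tied to proliferating cells, was at 23.4, 26.7 and 23.1 CPM in WT and 25.8, 26.0 and 27.4 CPM in KO (log2 fold change 0.11), and Pfkfb4, Pfkfb2 and Pfkfb1 had log2 fold changes of -0.12, -0.07 and -0.11.

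Lower glycolysis, from triose phosphate to pyruvate, held 3 of the 6 risen genes, and its other 4 members did not pass. Eno1 encodes alpha-enolase (chromosome 4, 150321178 to 150333336). It was at 1363, 1215 and 1269 CPM in WT and 1608, 1589 and 1635 CPM in KO. The genotypes were well separated, with a log2 fold change of 0.33 ± 0.06 (SE, adjusted p = 2.25e-06). Leaving out any single library kept this call, but limma on log2(FPKM + 1) did not make it (adjusted p = 0.0715), and it did not hold once the near-identical copies of Eno1 were added, as shown next. Eno2, the neuronal enolase, was far lower, at 23.7, 20.9 and 23.9 CPM in WT and 30.2, 26.4 and 27.5 CPM in KO (0.30 ± 0.10, SE, adjusted p = 0.0428). This call was lost in 11 of 15 alternatives, among them DESeq2 (adjusted p = 0.109) and limma voom (adjusted p = 0.108). Neural markers summed to between 69.7 and 77.7 CPM in WT and between 77.7 and 82.3 CPM in KO. Of the 5 tested, Tubb3 rose by 0.67 and 4 did not pass, and the median log2 fold change of the 5 was -0.25. Rbfox3, Aqp4 and Sox10 were at 0, and the part of these markers in the Eno2 result was not tested. Eno3, the muscle enolase, did not pass (-0.07), nor did Pgk1 (0.04), Pkm (0.07) or Pgam1 (-0.13, adjusted p = 0.293), whose KO values of 445, 443 and 447 CPM all lay below its WT values of 486, 499 and 474 CPM.

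Eno1 has copies elsewhere in the genome that arose from its spliced RNA. Gm4735, annotated as a processed pseudogene (chromosome 2, 80667485 to 80668786), was at 456, 399.7 and 467 CPM in WT and 199.8, 198 and 211 CPM in KO. It fell by more than the 2-fold limit in KO, with a log2 fold change of -1.12 ± 0.07 (SE, adjusted p = 9.06e-57). Eno1b, a retrotransposed copy annotated as protein coding, moved beside it, from 428, 360.3 and 388 CPM to 195, 188 and 196 CPM (log2 fold change -1.02, adjusted p = 8.59e-47). The scarcer copies Gm5855 (-1.12) and Gm8483 (-1.07) also fell, each with no overlap between genotypes and under every single-library omission. Thus, all 4 Eno1 copies with a mean of at least 1 CPM fell while Eno1 rose.

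The letters of these copies show how little separates them from Eno1. In GENCODE M21 transcripts (GRCm38), the whole 1302-base Gm4735 transcript aligned to the Eno1 transcript without a gap and differed at 5 bases. Positions below count from 1 at the A of the Eno1 start codon, with the Eno1 base first and the Gm4735 base last: T726C, T816G, A1056G, T1224C and C1233T. Each is at the last position of a codon, and none changes the encoded amino acid. At all 5, Eno1b carried the same letter as Gm4735, and Gm5855 did so at 4 and Gm8483 at 3. Of the 1878 windows of 150 bases (the length of the reads) in the Eno1 transcript, 920 (49.0%) occurred without a mismatch in at least 1 of its 18 listed copies. The stretches that hold the differing bases, in capitals, are shown for Eno1, with Gm4735 beside it at position 1056.
Eno1, coding bases 706 to 746, exon 8, chr4:150246608-150246648 (GRCm38, + strand): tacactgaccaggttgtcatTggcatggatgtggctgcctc
Eno1, coding bases 796 to 836, exon 8, chr4:150246698-150246738 (GRCm38, + strand): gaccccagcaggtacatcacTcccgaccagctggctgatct
Eno1, coding bases 1036 to 1076, across exons 9 and 10, chr4:150247621-150247839 (GRCm38, + strand): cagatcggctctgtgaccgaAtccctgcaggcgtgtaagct
Gm4735, aligned to the same bases, chr2:80838176-80838216 (GRCm38, + strand): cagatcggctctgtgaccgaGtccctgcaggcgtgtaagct
Eno1, coding bases 1204 to 1253, across exons 11 and 12, chr4:150248088-150248503 (GRCm38, + strand): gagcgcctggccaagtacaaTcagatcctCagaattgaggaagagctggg
The annotation gives the letters of the reference strain, C57BL/6J, while the cells also carried ICR chromosomes, and which letters the reads of each genotype carried was not tested, since the tables hold counts only.

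Added together, Eno1 and its copies did not differ detectably. The sums were 2265, 1986 and 2143 CPM in WT and 2010.1, 1984 and 2049 CPM in KO, which overlapped (log2 fold change -0.08 ± 0.06, SE, 95% interval from -0.20 to 0.03, adjusted p = 0.526). What did differ was how the sum was split. Eno1 held 60.2% ± 0.95 of it in WT and 79.96% ± 0.15 in KO (SD, n = 3), Gm4735 20.7% ± 0.97 and 10.1% ± 0.18, and Eno1b 18.4% ± 0.44 and 9.58% ± 0.12. Eno1b had 0.890 ± 0.055 counts per Gm4735 count in WT and 0.951 ± 0.023 in KO (SD, n = 3), and these ratios overlapped. The mean of Eno1 was 328 CPM higher in KO, and that of the summed copies lower by 445 CPM. By FPKM, the log2 ratio of the summed level of the members went from 0.07 to -0.04 with the copies of all members added. There each row is divided by its own length (5379 bases for Eno1, 1302 for Gm4735), so this is not a ratio of counts. Of all counts, the copies held from 0.117% to 0.127% in WT and from 0.0844% to 0.0905% in KO.

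**Figure D3:**
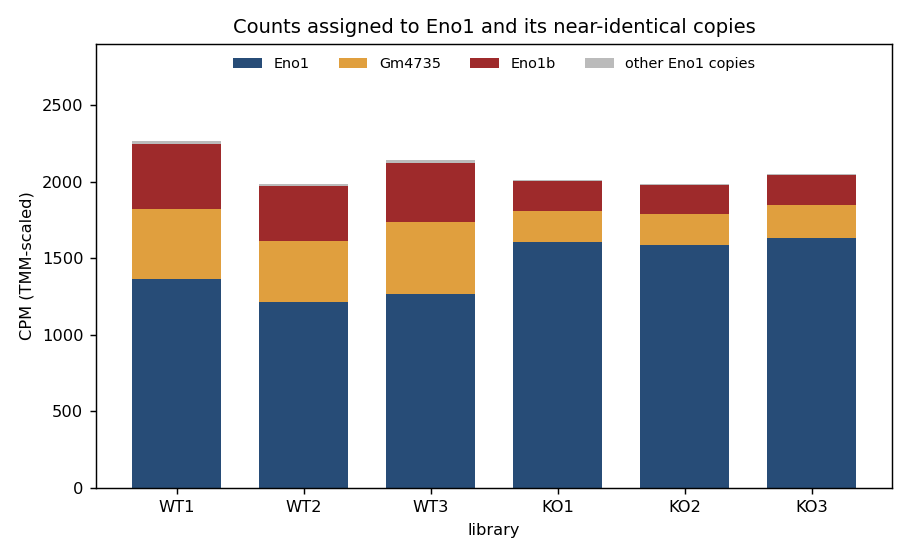
Stacked CPM of Eno1, Gm4735, Eno1b and the other Eno1 copies in each of the 6 libraries, on an axis from 0. The total stays between 1984 and 2265 CPM, while the Eno1 share goes from about 60.2% in WT to 79.96% in KO.

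Gapdh, the glyceraldehyde-3-phosphate dehydrogenase gene and a common reference gene (chromosome 6, 125138678 to 125143430), stood out for its low counts: 192, 243 and 358 reads in WT and 484, 608 and 350 in KO. Scaled, these were 15.05, 17.3 and 19.2 CPM in WT and 22.8, 36.5 and 21.9 CPM in KO. The genotypes did not overlap and the log2 fold change was 0.64 ± 0.11 (SE, adjusted p = 1.31e-07), but KO2 set much of it. Without KO2 the log2 fold change was 0.37 and the call was lost (adjusted p = 0.0596). Iffo1, on the opposite strand, overlaps Gapdh and had a mean of 322 counts beside 373 for Gapdh, and its part in the result was not tested. The tables listed 365 copies of Gapdh, 132 of them with counts. The processed pseudogene Gm13394 (chromosome 2, 28823622 to 28824621) alone had 294, 329 and 297 CPM in WT and 365, 363 and 412 CPM in KO (0.31 ± 0.07, SE, adjusted p = 1.27e-04). Its transcript was 99.9% identical to that of Gapdh, with 1 differing base in 1000 aligned, and 941 of 1271 windows of 150 bases in the Gapdh transcript (74.0%) occurred without a mismatch in a listed copy. The Gapdh row itself held 4.83% ± 0.61 of the family's counts in WT and 6.18% ± 2.0 in KO (SD, n = 3).

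The sum over Gapdh and its copies was 341, 381 and 348 CPM in WT and 422, 432 and 467 CPM in KO. This sum was higher in every KO library than in any WT library, by 0.31 ± 0.07 (log2, SE, adjusted p = 1.38e-04), and leaving out each library in turn gave 0.27 to 0.36. The direction for Gapdh thus held with the copies included, at a smaller size. Among the other members, 66.1% of the windows of Pgk1, 37.9% of those of Pgam1 and 2.01% of those of Pkm occurred in a copy, and adding copies changed no call for them. Copies of Pkm (Gm6560, -0.17), Pgam1 (Pgam1-ps2, 0.17) and Ldha (Ldha-ps2, 0.46), and the Gapdh copies Gm5559 (0.05), Gm7336 (-0.60), 3000002C10Rik (0.11) and Gm12070 (0.14), did not pass the test, although Gm7336 was called lower without WT1 or WT3. Over the omissions of each single library the log2 fold change of Gm7336 ranged from -0.88 to -0.16. Tpi-rs11, a Tpi1 copy at 7.37, 6.06 and 7.46 CPM in WT and 9.68, 10.9 and 9.55 CPM in KO, rose by 0.53 (adjusted p = 0.0116), a call lost without WT2 or KO2 and under DESeq2 and limma voom.

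The lactate branch shifted between its transporters. Slc16a1 encodes MCT1, which moves lactate in either direction (chromosome 3, 104545984 to 104565778). Its level was 124, 119.9 and 115 CPM in WT and 100.2, 101 and 101 CPM in KO, with every KO library below every WT library (-0.25 ± 0.07, SE, adjusted p = 0.0116). The call was lost when any single KO library was left out (adjusted p up to 0.11). Slc16a3 encodes MCT4, the exporter of highly glycolytic cells (chromosome 11, 120839306 to 120851694), and was at 61.3, 68.4 and 66.8 CPM in WT and 74.1, 83.6 and 78.7 CPM in KO. It moved the other way by 0.26 ± 0.08 (SE, adjusted p = 0.0136), a call lost without KO2 or KO3 and under limma voom (adjusted p = 0.0521). By FPKM, Slc16a3 made up 31.3% ± 1.9 of the pair in WT and 39.5% ± 1.4 in KO (SD, n = 3), a shift of 8.17 percentage points with no overlap. With 3 libraries a genotype, the smallest two-sided p of an exact permutation test is 0.1, so the shares are given without a test. Slc16a3 overlaps Csnk1d on the opposite strand, and no use of strand in counting is stated.

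Neither subunit of lactate dehydrogenase passed the test. Ldha, the muscle-type subunit that favors lactate, was at 899.8, 805 and 825 CPM in WT and 911, 899.97 and 913 CPM in KO, and Ldhb, the heart-type subunit, at 13.95, 10.6 and 11.6 CPM and 14.3, 15.1 and 14.2 CPM. Both were higher in each KO library than in any WT library, by 0.11 (adjusted p = 0.386) and 0.27 (adjusted p = 0.233). Without WT1 both were called, with a log2 fold change of Ldha of 0.16 (adjusted p = 2.82e-04) and a log2 fold change of Ldhb of 0.38 (adjusted p = 0.0441).

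At the pyruvate dehydrogenase complex, Pdk1 rose and Pdha1 fell. Pdk1 encodes a kinase that inactivates pyruvate dehydrogenase (chromosome 2, 71703568 to 71734202) and was at 24.5, 22.9 and 26.5 CPM in WT and 33.9, 33.5 and 35.4 CPM in KO. The rise was 0.47 ± 0.10 (log2, SE, adjusted p = 4.98e-05), or 1.39-fold, and it kept an adjusted p under 0.05 in all 15 alternatives, with a log2 fold change from 0.38 to 0.53. No copy of Pdk1 was listed. Pdha1, the catalytic E1 alpha subunit of pyruvate dehydrogenase and the target of that kinase, fell from 185, 176 and 185 CPM to 158, 158 and 151 CPM (chromosome X, 158905205 to 158921409). Its log2 fold change was -0.22 ± 0.07 (SE, adjusted p = 0.0232), lost without WT3 or any single KO library (adjusted p up to 0.243). The kinases Pdk2 (0.11) and Pdk3 (-0.16, adjusted p = 0.298) did not pass.

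Pdk3 was the most abundant of the 3 kinases, at 84.7% ± 0.65 of their summed FPKM in WT and 79.5% ± 1.2 in KO, and Pdk1 went from 10.1% ± 1.1 to 14.8% ± 0.75 (SD, n = 3). Neither share overlapped between genotypes. Pdha1, Pdk3, Pgk1, G6pdx and Pfkfb1 lie on chromosome X. The genotypes differed in X-linked Xist (WT 940 to 1359 CPM, KO 474 to 494 CPM) and in the Y-linked genes. Of the 5 X-linked members, only Pdha1 passed the test, and the part of this difference in Pdha1 or in the other calls was not tested. Of the 305 X-linked genes of at least 10 CPM, 18 were called higher and 30 lower, with a median log2 fold change of -0.02.

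**Figure D4:**
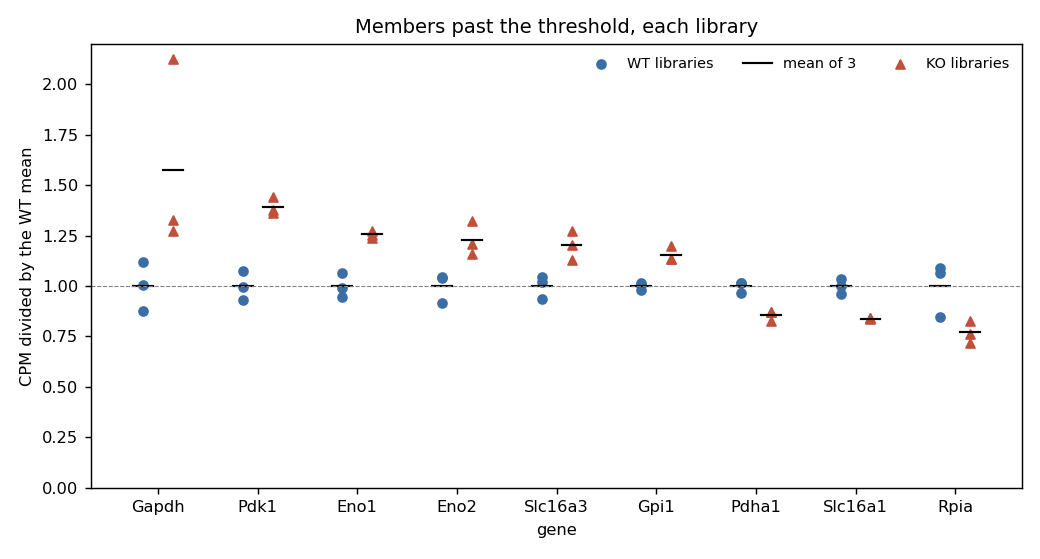
CPM of the 9 members past the threshold in each library, divided by the WT mean of the gene, with bars for the mean of 3. KO2 stands apart for Gapdh, and the Pdk1 and Slc16a1 values of KO cluster tightly.

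The oxidative arm of the pentose phosphate pathway did not pass the test at any step. G6pdx, which commits glucose-6-phosphate to the pathway, was at 83.1, 85.9 and 85.0 CPM in WT and 90.1, 88.1 and 94.9 CPM in KO (0.10, 95% interval from -0.05 to 0.25). The 6-phosphogluconate dehydrogenase gene Pgd was at 201, 185 and 194 CPM and 203, 204 and 201 CPM (0.07). Pgls, the lactonase between them, differed by 0.02. G6pdx and Pgd were each higher in all KO libraries by a small margin, while Pgls overlapped.

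In the non-oxidative arm, Rpia fell. Rpia, ribose-5-phosphate isomerase (chromosome 6, 70742704 to 70769216), was at 29.7, 23.0 and 28.9 CPM in WT and 19.5, 22.5 and 20.8 CPM in KO. WT2 lay just above the highest KO library, and the log2 fold change was -0.38 ± 0.10 (SE, adjusted p = 0.0050). The call was lost without WT3 or KO1 (adjusted p up to 0.114) and under limma voom (adjusted p = 0.0547). Rpe, the epimerase that acts on the same substrate, was lower in each KO library without passing (-0.18, adjusted p = 0.325). Transketolase (Tkt, -0.03) and transaldolase (Taldo1, 0.17, adjusted p = 0.195), which link the arm back to glycolysis, did not pass. Without WT1 the log2 fold change of Taldo1 was 0.28 and was called (adjusted p = 4.95e-04). Over the omissions of each single library it ranged from 0.098 to 0.28, with an adjusted p of up to 0.635.

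Other isozyme shares differed by less than 4 percentage points. By FPKM, Slc2a1 made up 97.7% of the glucose transporter pair in WT and 98.3% in KO, Aldoa 99.3% and 99.2% of the aldolase pair, and Ldha 97.1% and 96.7% of lactate dehydrogenase. Hk2 held 42.7% ± 0.30 of the hexokinase pair in WT and 43.6% ± 2.3 in KO, and Pfkl 65.6% ± 2.7 and 64.1% ± 0.34 of phosphofructokinase (SD, n = 3). Eno3 went from 6.94% ± 0.45 to 5.35% ± 0.030 of the 3 enolases (SD, n = 3), a share that moves with the counts given to Eno1. Pfkfb3 held 29.98% ± 0.98 of its family in WT and 33.4% ± 1.7 in KO, also without overlap.

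**Figure D5:**
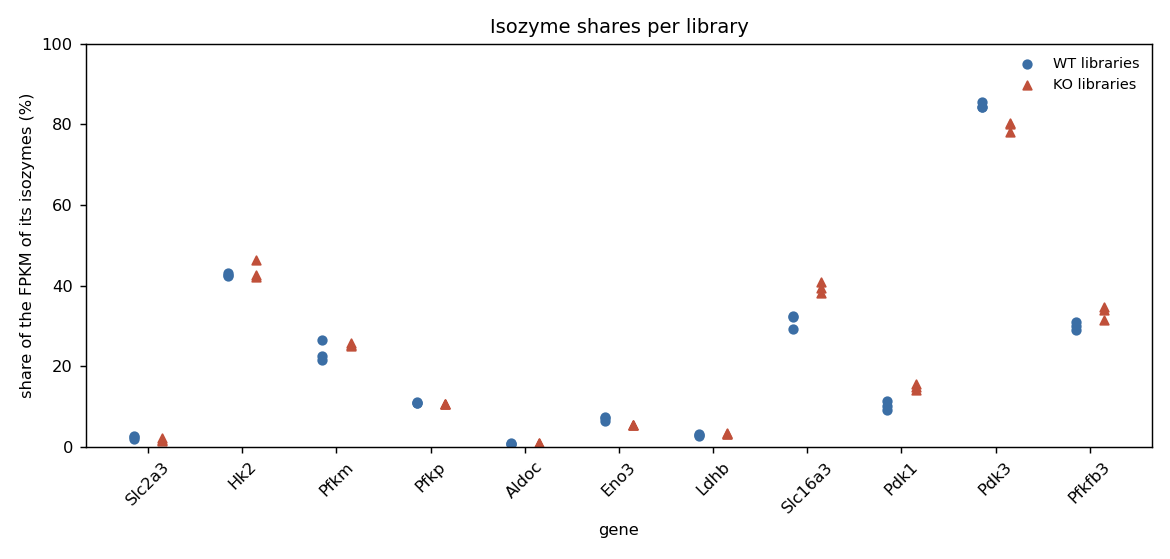
Share of a gene in the summed FPKM of its isozymes (%), per library, WT as circles and KO as triangles. Slc16a3, Pdk1 and Pdk3 show the widest gaps between the genotypes, and the hexokinase and aldolase shares overlap.

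Among 52 further genes of glucose metabolism, 47 were tested, and 3 rose and 1 fell. This stands beside 4.97% and 4.03% of all rows, and 8.36% and 8.79% of all genes of at least 10 CPM. Tigar, a phosphatase that lowers fructose-2,6-bisphosphate, fell from 19.5, 21.03 and 22.005 CPM to 14.5, 16.2 and 16.7 CPM (-0.41, adjusted p = 0.00643). G6pc3, the widely expressed glucose-6-phosphatase, was higher by 0.35, the microsomal H6pd by 0.26, and the scarce inositol transporter Slc2a13 by 1.36 with overlapping genotypes. Each of these 4 calls was lost on leaving out at least 1 library, and H6pd was at 0.14 without WT1. Pgk2, Pklr, Fbp1, Fbp2 and Tktl2 were at 0 in all libraries.

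Known hypoxia targets and factors that act on these genes were examined by the same test. Of 20 hypoxia targets, 1 rose, 3 fell and 16 did not pass. Over all rows 4.97% were called higher and 4.03% lower, and over all genes of at least 10 CPM 8.36% and 8.79%. Car12, a membrane carbonic anhydrase, rose from 7.60, 8.27 and 7.03 CPM to 28.4, 25.5 and 23.9 CPM (1.77), while Adm, the adrenomedullin gene, fell from 27.4, 25.9 and 27.6 CPM to 13.9, 18.6 and 13.4 CPM (-0.82). Ndrg1 (-0.29) and Stc2 (-0.47) also fell. Without WT3 the log2 fold change of Stc2 was -0.25 and was not called (adjusted p = 0.496). Hif1a was at 210.4, 217 and 195 CPM in WT and 207, 216 and 205 CPM in KO, with a log2 fold change of 0.01. Of the 14 regulators, 2 rose, 1 fell and 11 did not pass, read against the same shares. Myc fell from 114, 111 and 106 CPM to 89.3, 85.8 and 89.3 CPM (-0.32 ± 0.08, SE), and the glucose-responsive Txnip (0.32) and Arrdc4 (0.75) rose. Calls for Car12, Adm and Myc held without any single library, and those for the other 4 genes were lost without at least 1.

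In RefSeq promoters (GRCm38.p6, 250 bases before to 50 after a start), 36 of the 37 members were matched, with 56 promoters. The core letters bound by hypoxia-inducible factors, ACGTG or GCGTG on either strand, stood in 42 of them (75%), beside 43.8% of all 32851 promoters. CACGTG, the E-box of the Myc family, which contains ACGTG, stood in 6 (10.7%), beside 7.15%. Of the 9 called genes, Gpi1 and Eno2 held neither core, Pdk1 held GCGTG in 1 of its 2 promoters, and the risen Eno1, Gapdh and Slc16a3 and the fallen Slc16a1, Pdha1 and Rpia held a core in every matched promoter. By gene, 32 of the 36 members (88.9%) held a core, beside 46.7% of all genes with a promoter. Both cores hold the letters CG, and the promoters compared were not matched for base content or expression level. A match describes letters only.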

How the data were processed

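RNA-seq of 3 WT and 3 KO MEF libraries was analysed from 2 deposited tables. Per the labels and the study's methods, the authors trimmed 150-base paired reads with fastp, aligned them with HISAT2 (2.0.5) and counted reads per gene with featureCounts (1.5.0-p3). The deposited counts are raw. The deposited FPKM values are, per the file, counts divided by gene length and by a library size that is close to, but not equal to, the summed counts (they fit this form with 1 fitted size per library, to a largest relative deviation of 5.47e-07). How reads that match several loci were counted, and whether strand was used, is not given in the sources used here. Of the members, 8 overlap a gene on the opposite strand that has at least 10% of their counts. Aldoa has a second row (9 to 34 counts), which was not used. The labels name GRCm38, but only 1499 of 52081 shared gene IDs start where GENCODE M21 (GRCm38) has them, and the study's methods name an Ensembl release that is built on GRCm39. Table coordinates are therefore given as GRCm39, without a check against that genome, and transcript and promoter sequences as GRCm38.

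KO and WT were compared with the quasi-likelihood test of edgeR (4.0.16; R 4.3.3) after TMM scaling (factors 0.98 to 1.01), with Benjamini-Hochberg adjustment over 26898 rows. All adjusted p-values are from this fit unless another tool is named. The prior degrees of freedom were infinite, so each gene took the spread of the trend, and p-values are too small for genes that vary more than the trend. Alternatives were DESeq2 (1.42.0), limma (3.58.1) voom, limma on log2(FPKM + 1) and log2(FPKM + 0.1), RLE scaling, other filters, a replicate block, omission of each library and counts summed with copies. Replicate numbers did not pair the samples (correlations of same-numbered deviations -0.02, -0.02 and 0.04). On simulated data (25657 genes) edgeR recovered 93 of 103 genes changed by 0.5 and 97 of 97 changed by 1 on the log2 scale, with 9 false calls. Recovery of changes below 0.5 was not tested, and every called member but Gapdh (0.64) changed by less than that. Recovery of genes that vary more than the trend was not tested separately.

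Genes named include all members, copies with a mean of at least 1 CPM, Mcm8, and the called genes among further pathway genes, hypoxia targets and regulators. Hif1a, which was not called, some markers, genes without counts and overlapping genes are named as well. Not every called marker is named. Members and lists were chosen with earlier results of these data known. Sequences were aligned with Biopython (1.88), and tables handled with pandas (2.3.3).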

Additional observations from a re-analysis of the deposited data

How the results depend on the processing

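Of the 9 called members, the call for Pdk1 held in all 15 alternatives, and the calls for Eno1, Gapdh and Slc16a1 in 12 of 15. Limma on log2(FPKM + 1) ended the calls for Eno1 (adjusted p = 0.0715), Gapdh (0.249), Eno2 (0.159), Slc16a3 (0.11) and Rpia (0.215). With log2(FPKM + 0.1), the calls for Gpi1 (adjusted p = 0.0610) and Pdha1 (0.0505) ended too. Counts of members ranged from 2 to 11 (higher) and from 0 to 4 (lower) when a library was left out, counts of the other pathway genes from 1 to 4 and from 0 to 3, and of the hypoxia and glucose-responsive genes from 1 to 5 and from 2 to 5. The median log2 fold change of the members ranged from 0.0323 (without WT2) to 0.0837, and the log2 ratio of their summed FPKM from 0.0423 (without WT2) to 0.101. The other pathway genes called higher were 1 under DESeq2 and 0 under limma voom, and those called lower were 2 under RLE scaling, filterByExpr or a filter of FPKM above 0 in every library. With copies summed, Eno1 went to -0.0814, and the Eno2 share to a difference of 0.425 percentage points. The summed FPKM, with each copy divided by its own length, went to a log2 ratio of -0.0419. With CPM in place of FPKM, the Slc2a3 share differed by -1.05 points. Leaving out a library turned the sign of log2 fold changes near 0, none of them called: Hk1 (-0.0368 to 0.0595), Hk2 (-0.0100 to 0.130), Aldoa (-0.0253 to 0.0611), Pfkfb1 (-0.228 to 0.0154), Pfkfb2 (-0.158 to 0.0158), Eno3 (-0.158 to 0.0161), Pdk2 (-0.0155 to 0.221), Pgls (-0.0387 to 0.0632), Gm5559 (-0.0799 to 0.131) and 3000002C10Rik (-0.0178 to 0.244). The cause was not tested.

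With the replicate block, 5 members were higher and 3 lower. Eno2 was lost (adjusted p = 0.0541) and no other member's call changed. Replicate numbers share only a number.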
